A study of Aedes aegypti with 12 samples.

Results

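The cuticle and chitin genes of the yellow fever mosquito *Aedes aegypti* were taken by name from RNA sequencing of brain and fat body. A gene was a member if its description named a cuticle or cuticular protein, an endocuticle protein, chitin or a chitinase, a peritrophin, an obstructor or a resilin, which gave 280 of 19256 genes. The 2 genotypes were the wild type, of the Liverpool strain, and a mutant of AaegGr34, which encodes a receptor of the gustatory family, and each gave 3 brain and 3 fat body libraries, 12 in all. Both strains had constant access to sucrose. The labels used here name no sex, age, feeding state at dissection, kind of mutation or number of animals behind a library, so a p-value here speaks only of how far these libraries vary, which may be technical. The study asked, per its design text, how each tissue of the mutant differs from wild type.

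Insect cuticle is a composite of chitin fibres and structural proteins that the epidermis secretes, and it lines the tracheae that run into brain and fat body as well as the outer surface. The structural proteins are named for the stage or insect in which a relative was first found (larval, pupal or adult), so a stage in a name is not a statement on when the mosquito gene is used. Chitinases cut chitin when cuticle is remodelled, and relatives such as the Idgf proteins, growth factors in *Drosophila*, keep the chitinase fold without the enzyme activity. Peritrophins bind chitin in the sheath around food in the midgut, obstructors are chitin-binding proteins that organise cuticle in *Drosophila*, and resilin is the rubber-like protein of wing hinges and other elastic cuticle.

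By their descriptions the members comprised 46 larval, 18 pupal, 31 adult, 20 endocuticle or flexible and 111 other cuticle proteins, 5 pro-resilins, 23 chitinases, 8 chitinase-like proteins and 18 peritrophins or obstructors. The deposited annotation gave 150 of them the term structural constituent of cuticle, 44 chitin binding and 7 chitinase activity, and 84 had no term. Chitinase activity was given to 4 of the 23 chitinases and 3 of the 8 chitinase-like proteins, so a class name here does not show enzyme activity. Chromosome 2 held 177 members, or 63.2%, against 35.1% of all genes. Neighbours were common: 206 members lay within 100 kb of another member, in 26 runs, and the longest run held 38 genes at chr2:177931699-178613389 on the AaegL5.0 assembly, 25 of them described as cuticle protein 19. The genes were short, with a median span of 1020 bases and 2 exons.

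Most of these genes were silent or nearly so in both dissections. No library had a count for 37 members, and 106 reached 10 counts in a library. A mean of at least 1 TPM (the authors' transcript level, corrected for gene length and library size) was reached by 64 members in brain, 48 in fat body and 36 in both. Chitinase-like proteins reached 1 TPM in 6 of 8 cases in fat body and 4 in brain, and chitinases in 13 of 23 and 10. In fat body 4 of 46 larval cuticle proteins and 0 of 5 pro-resilins reached it. These means span both genotypes. In mutant fat body the chitinase-like LOC5576995 and LOC5576996 ran from 0.0729 to 20.3 TPM and from 0.0750 to 7.38 TPM. Chitinase LOC5574806 ran from 0.112 to 35.4 TPM there. The fat body means of these genes rest largely on mutant replicates 2 and 3. In brain the members together took 0.189 ± 0.008% of the counts of wild type and 0.235 ± 0.041% of the mutant's (SD, n = 3). In fat body the shares were 0.225 ± 0.043% for wild type and 0.200 ± 0.041% for the mutant (SD, n = 3). These sums rest on few genes: the log2 ratio of fat body to brain in wild type was 0.25, but 0.98 without brain's 5 most abundant members, -0.91 without fat body's 5 and -0.28 without both sets. By mean TPM over both genotypes, LOC5565474 and the Idgf4 genes LOC5573204 and LOC5573132 were in both sets, LOC5570388 and LOC5573903 in brain's and LOC5578131 and LOC5577601 in fat body's. LOC5565474 entered fat body's set through mutant libraries, at 1.53 to 685 TPM there against 4.76 to 15.5 TPM in wild-type fat body. Leaving it out also removed 273 to 428 TPM from wild-type brain. In bulk tissue, fewer cells of a type and less RNA per cell cannot be told apart.

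Total counts per library ran from 18500303 to 31314215, and the replicates of each group differed from each other beyond counting noise. Gr34 itself had 24, 22 and 7 counts in the brains of wild type and 6, 11 and 28 in those of the mutant, a log2 fold change of 0.03 with a standard error (SE) of 0.60 and an adjusted p of 0.985 in edgeR's quasi-likelihood test, so its level did not check the genotype labels. The brain libraries held 20.5% to 27.2% of their counts in 47 photoreceptor genes (opsins, arrestins and the like), and neuron markers were at 0.314% to 0.422%. That photoreceptor share was 22.7% to 27.2% in wild type and 20.5% to 22.4% in the mutant, without overlap, and its part in the brain results was not tested. The fat body list, 25 genes led by apolipophorins (LOC5572681, lipid carriers that the fat body secretes), made up 0.286% to 0.468% of fat body counts against 0.0933% to 0.127% in wild-type and 0.135% to 0.150% in mutant brain, again without overlap between the genotypes. It was drawn by words in the descriptions and took in 3 pyruvate dehydrogenase regulators that are no fat body markers. It also took in a putative vitellogenin receptor (LOC5569465), at 0.0159% to 0.112% of fat body counts and at most 8.87e-06% in brain. Within each genotype the receptor's order across fat body libraries was that of the ovary and germline genes given below, whose part was not tested. Apolipophorins LOC5572681 stood at 277 to 336 TPM in wild-type fat body and 84.1 to 125 TPM in wild-type brain, while the yolk protein gene vitellogenin-A1 (LOC5573342) stayed at or below 0.252 TPM in all 12 libraries. Other genes described as vitellogenins were present in both dissections, and whether they encode yolk proteins was not checked. Vitellogenin-1 LOC5567092 was at 67.5 to 112 TPM in brain and 17.9 to 71.6 TPM in fat body, and vitellogenin-3 LOC5567373 at 22.1 to 32.2 TPM and 6.74 to 13.9 TPM. In brain, muscle genes took 0.684% to 1.03% of counts and hemocyte genes 0.00128% to 0.00204% in wild type and 0.00241% to 0.00565% in the mutant.

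In wild-type brain the most abundant member was a pupal cuticle protein Edg-78E gene (LOC5570388), a relative of an ecdysone-dependent *Drosophila* gene, at 597, 432 and 673 TPM, and in mutant brain it stood at 1139, 771 and 722 TPM. The Idgf4 gene LOC5573204 followed at 378 to 506 TPM in wild type, and a probable chitinase 10 (LOC5565474) stood at 364, 273 and 428 TPM. In wild-type fat body the order was another. Flexible cuticle protein 12 (LOC5578131), named for a protein of soft cuticle, led with 1432, 1889 and 751 TPM, and larval cuticle protein LCP-30 (LOC5577601), named for a silkworm protein, stood at 530, 613 and 347 TPM. The 2 Idgf4 genes were high in both dissections. LOC5573204 stood at 361 to 433 TPM and LOC5573132 at 296 to 411 TPM in wild-type fat body.

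**Figure D1:**
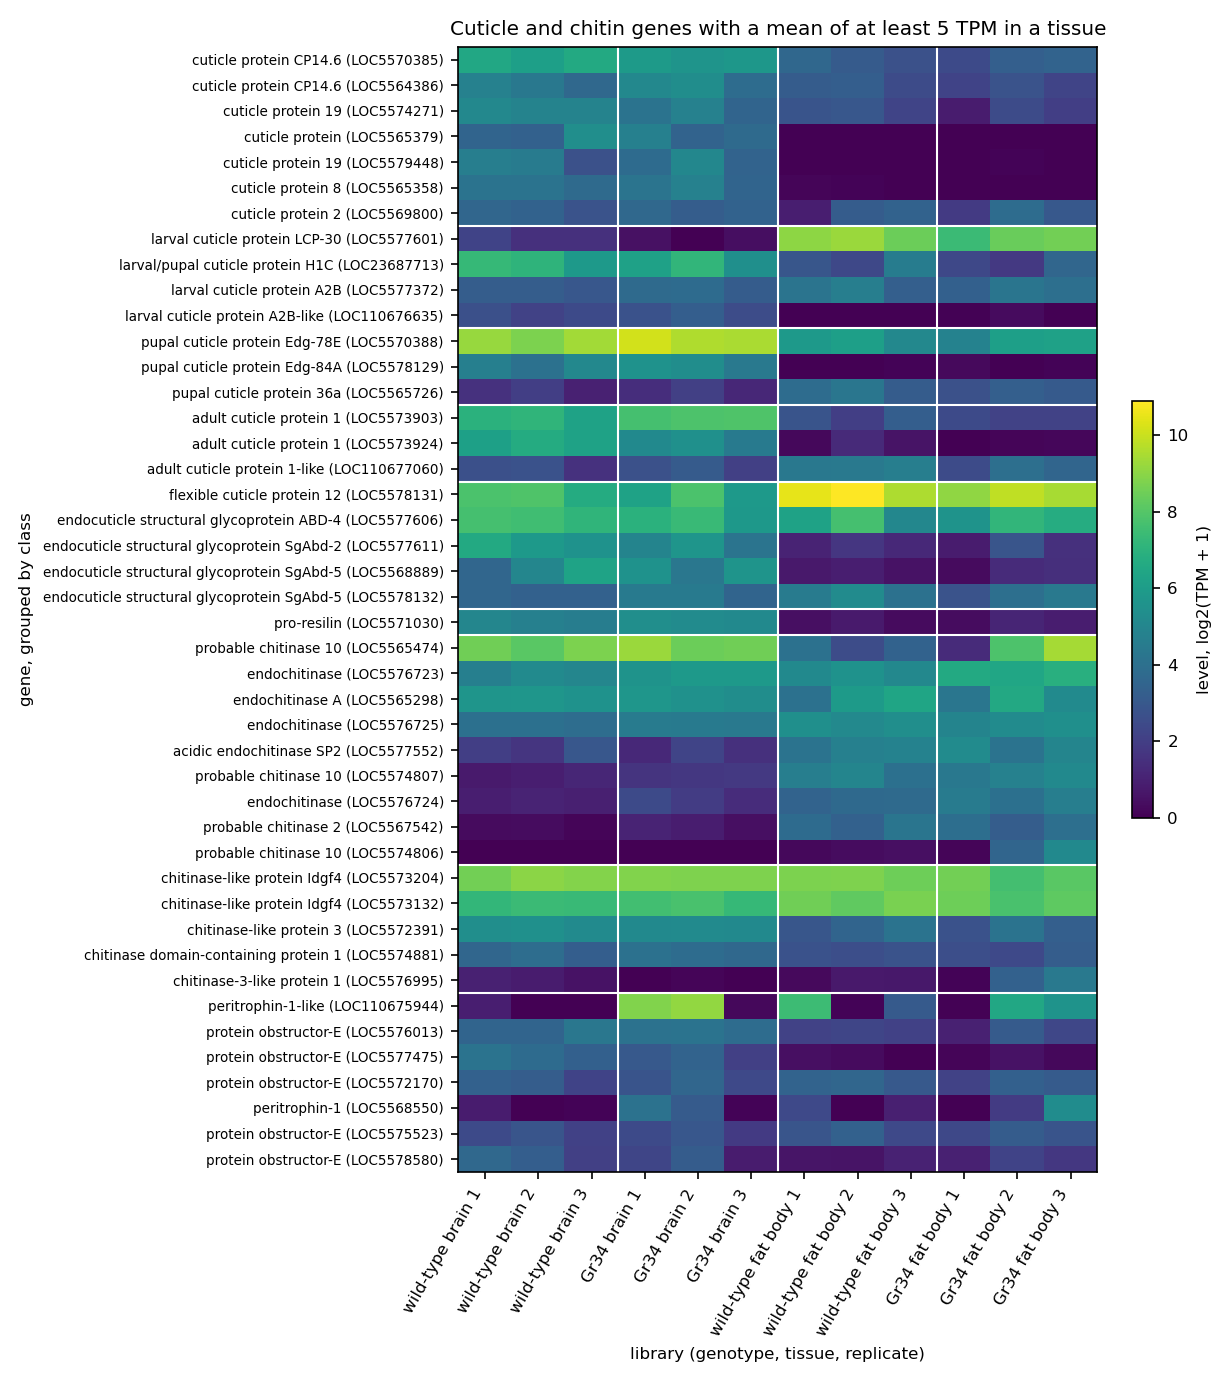
Heat map of the 44 members with a mean of at least 5 TPM in a tissue, by class (rows) and library (columns), coloured by log2(TPM + 1). Cuticle protein 8 (LOC5565358), cuticle protein 19 (LOC5579448) and LOC5565379 are dark in fat body, LCP-30 is bright there and dark in brain, and peritrophin-1-like (LOC110675944) is bright in mutant brain replicates 1 and 2 only among the brain libraries.

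The next question was how these genes differed between mutant and wild-type brain. A gene was called when edgeR's quasi-likelihood test gave an adjusted p under 0.05 over all genes tested. In mutant brain 12 of 71 tested members were called, 7 higher and 5 lower, or 16.9%, against a background of 8.86% of 11848 genes (4.6% higher and 4.26% lower). The members' median log2 fold change was 0.11, against 0.01 over all genes. The genotypes did not overlap in 27 of the 71 (background 28.6% of genes), and 31 had an unadjusted p under 0.05 (background 22.8%). Pupal cuticle protein-like LOC110680502 and LOC110674861 had the same CPM in each brain library. Both are in the 27 and the 31, so 1 signal may be counted as 2. By class, the called genes were 3 of 12 chitinases (all higher), 4 of 8 larval cuticle proteins (2 in each direction), 2 of 6 adult cuticle proteins (1 in each direction), 1 of 8 pupal cuticle proteins (higher), 1 of 18 other cuticle proteins (lower) and 1 of 2 pro-resilins (lower). Of the 6 endocuticle or flexible cuticle proteins, 4 chitinase-like proteins and 7 peritrophins or obstructors, 0 were called. In that order, 2, 1 and 2 of them had an unadjusted p under 0.05, and DESeq2 called 1, 0 and 1. The share of all genes that DESeq2 called in brain is not given.

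Among the larval cuticle proteins, genes with one description moved in opposite directions. The A2B gene LOC5565382 (A2B is a mealworm protein), at chr2:288349289-288350055, minus strand, stood at 0.711, 0.809 and 0.771 CPM (counts corrected for library size but not for gene length) in wild-type brain and at 0, 0.0467 and 0 CPM in the mutant. The mutant libraries held 1 count of it against 56 in wild type, a ratio of 47.5 with an exact 95% counting interval of 8.19 to 1910 (adjusted p 0.00589, edgeR). A second A2B gene, LOC5578716 (chr2:315812707-315855748, plus strand), was at 0.162, 0.213 and 0.154 CPM in wild type and at 1.17, 0.841 and 1.74 CPM in the mutant, a log2 fold change of 2.79 (SE 0.42, adjusted p 0.00939, edgeR). All 3 mutant libraries thus lay below wild type for the first gene and above it for the second. LOC5578716 lost its call without wild-type brain replicate 1 (adjusted p 0.0505). LOC5565382 has fractional counts and lies among neighbours of its description. Summed over these 15 A2B genes, brain levels were 5.40, 3.75 and 4.98 CPM in wild type and 4.43, 7.01 and 4.10 CPM in the mutant, with overlap, and the log2 fold change was 0.14 (SE 0.26, adjusted p 0.811, edgeR).

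The LCP-17 gene LOC5571165 (chr3:236999854-237000713, plus strand), again named for a silkworm protein, rose from 0.162, 0.341 and 0.411 CPM to 2.00, 1.03 and 2.27 CPM (log2 fold change 2.56, SE 0.47, adjusted p 0.0194, edgeR). LCP-30 (LOC5577601, chr2:366397245-366398359, plus strand) fell in brain, from 1.91, 0.937 and 1.08 CPM to 0.195, 0 and 0.193 CPM, a log2 fold change of -3.32 (SE 0.69, adjusted p 0.0294, edgeR). In both genes the genotypes did not overlap. LCP-17 was called in 3 of 6 fits that left out 1 library and was lost without wild-type replicates 1 or 2 or mutant replicate 1 (adjusted p up to 0.0799). LCP-30 was called in 2 of 6 and was lost without any 1 wild-type library or mutant replicate 1 (up to 0.102).

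Adult cuticle protein 1 is a cuticle protein first described in *Drosophila*, and the mosquito has it in neighbouring runs of copies. LOC5573903 (chr2:428783502-428784321, plus strand) stood at 49.5, 52.6 and 33.3 CPM in wild-type brain and at 77.7, 93.4 and 100.4 CPM in the mutant, a log2 fold change of 1.00 (SE 0.19, adjusted p 0.0204, edgeR). LOC5573924 (chr2:429170789-429171449, plus strand) went the other way, from 23.4, 31.6 and 26.6 CPM to 10.7, 14.1 and 6.90 CPM (log2 fold change -1.36, SE 0.25, adjusted p 0.0214, edgeR). Sums of same-named neighbours were mostly these genes themselves, so they are no separate support. In wild-type brain the 11 genes around the first summed to 52.4, 55.0 and 34.3 CPM. The 8 around the second summed to 24.3, 31.9 and 27.3 CPM. Of these 11 and 8 genes, 7 and 6 had under 10 counts in every library. The sums had log2 fold changes of 0.97 (adjusted p 0.0253, edgeR) and -1.33 (adjusted p 0.0173, edgeR). LOC5573903 was lost without replicates 1 or 2 of either genotype (adjusted p up to 0.0625), and LOC5573924 without wild-type replicates 2 or 3 or mutant replicate 1 (up to 0.0872).

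A run of 4 neighbouring endochitinase genes lies on the plus strand at chr1:261341183-261394935, and 3 of them rose in mutant brain. LOC5576723, with the most counts, went from 20.4, 27.6 and 27.1 CPM to 36.2, 48.4 and 48.0 CPM (log2 fold change 0.82, SE 0.16, adjusted p 0.0260, edgeR). LOC5576725 went from 11.5, 11.0 and 11.6 CPM to 15.7, 16.8 and 16.0 CPM (0.51, SE 0.10, adjusted p 0.0220, edgeR), and here the replicates lay close together. LOC5576724 went from 0.711, 0.852 and 0.822 CPM to 3.41, 2.34 and 1.35 CPM (1.57, SE 0.38, adjusted p 0.0471, edgeR). The fourth gene, LOC5576726, had a log2 fold change of -0.19 (SE 0.32, adjusted p 0.786, edgeR). Summed over the run, the counts were 37.2, 42.5 and 41.9 CPM in wild type and 58.8, 70.8 and 67.4 CPM in the mutant, a log2 fold change of 0.70 (SE 0.10, adjusted p 0.00925). Among fits leaving out 1 library, LOC5576725 was lost without replicates 1 or 2 of either genotype (adjusted p up to 0.114), LOC5576723 without wild-type replicates 1 or 2 or mutant replicates 2 or 3 (up to 0.0751), and LOC5576724 was called only without mutant replicate 3 (up to 0.150).

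Other chitinases stayed under the threshold in brain. Probable chitinase 10 LOC5574807 was at 0.582, 0.682 and 1.08 CPM in wild type and at 1.56, 1.96 and 2.07 CPM in the mutant, without overlap (log2 fold change 1.27, adjusted p 0.0527, edgeR). Probable chitinase 2 LOC5567542 had a log2 fold change of 1.78 (SE 0.51, adjusted p 0.0799, edgeR). Endochitinase A LOC5565298 had a log2 fold change of -0.14 (SE 0.09), and the abundant Idgf4 genes LOC5573204 and LOC5573132 had -0.04 (SE 0.12) and 0.19 (SE 0.13). The remaining chitinases that were tested, LOC5579299, LOC5577552, LOC5576174, LOC5565474 and LOC5565645, had log2 fold changes of 1.26, -0.82, -0.32, 0.25 and -0.22, with adjusted p from 0.158 to 0.671 (edgeR).

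A further pair of structural genes fell in mutant brain. Cuticle protein 16.5 (LOC5571813, chr2:86005275-86006231, plus strand) went from 4.78, 2.90 and 3.90 CPM to 0, 0.327 and 0.145 CPM, a log2 fold change of -4.56 (SE 0.64, adjusted p 0.00740, edgeR). It and the A2B gene LOC5565382 were the 2 of 12 that stayed called whichever library was left out. Pro-resilin LOC110681494 (chr1:205184850-205188012, plus strand) fell from 1.49, 2.34 and 2.98 CPM to 0.779, 0.794 and 0.820 CPM (log2 fold change -1.49, SE 0.33, adjusted p 0.0346, edgeR), and was called in 1 of 6 fits leaving out 1 library, the one without wild-type replicate 1 (adjusted p up to 0.122 in the others). The more abundant pro-resilin LOC5571030, on chromosome 3, was at 35.8, 27.6 and 29.9 CPM in wild type and at 43.6, 43.1 and 41.5 CPM in the mutant, without overlap and under the threshold (log2 fold change 0.46, SE 0.12, adjusted p 0.0535, edgeR).

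The second Edg-78E gene, LOC5572913 (chr2:161935275-161936261, plus strand), rose from 0.743, 0.724 and 0.976 CPM to 3.36, 2.85 and 1.78 CPM in brain (log2 fold change 1.71, SE 0.32, adjusted p 0.0211, edgeR). It was lost without replicates 1 or 2 of either genotype (adjusted p up to 0.0939). The far more abundant Edg-78E gene LOC5570388 was also higher in each mutant brain library, with a log2 fold change of 0.58 (SE 0.23), and did not pass the test (adjusted p 0.194). Cuticle protein CP14.6 (LOC5570385) was lower in each mutant library, with a log2 fold change of -0.69 (SE 0.17, adjusted p 0.0510). None of the 12 called genes overlaps another annotated gene, and 6 of them have whole counts. The other 6 have fractional counts, so their reads may be shared with copies.

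**Figure D2:**
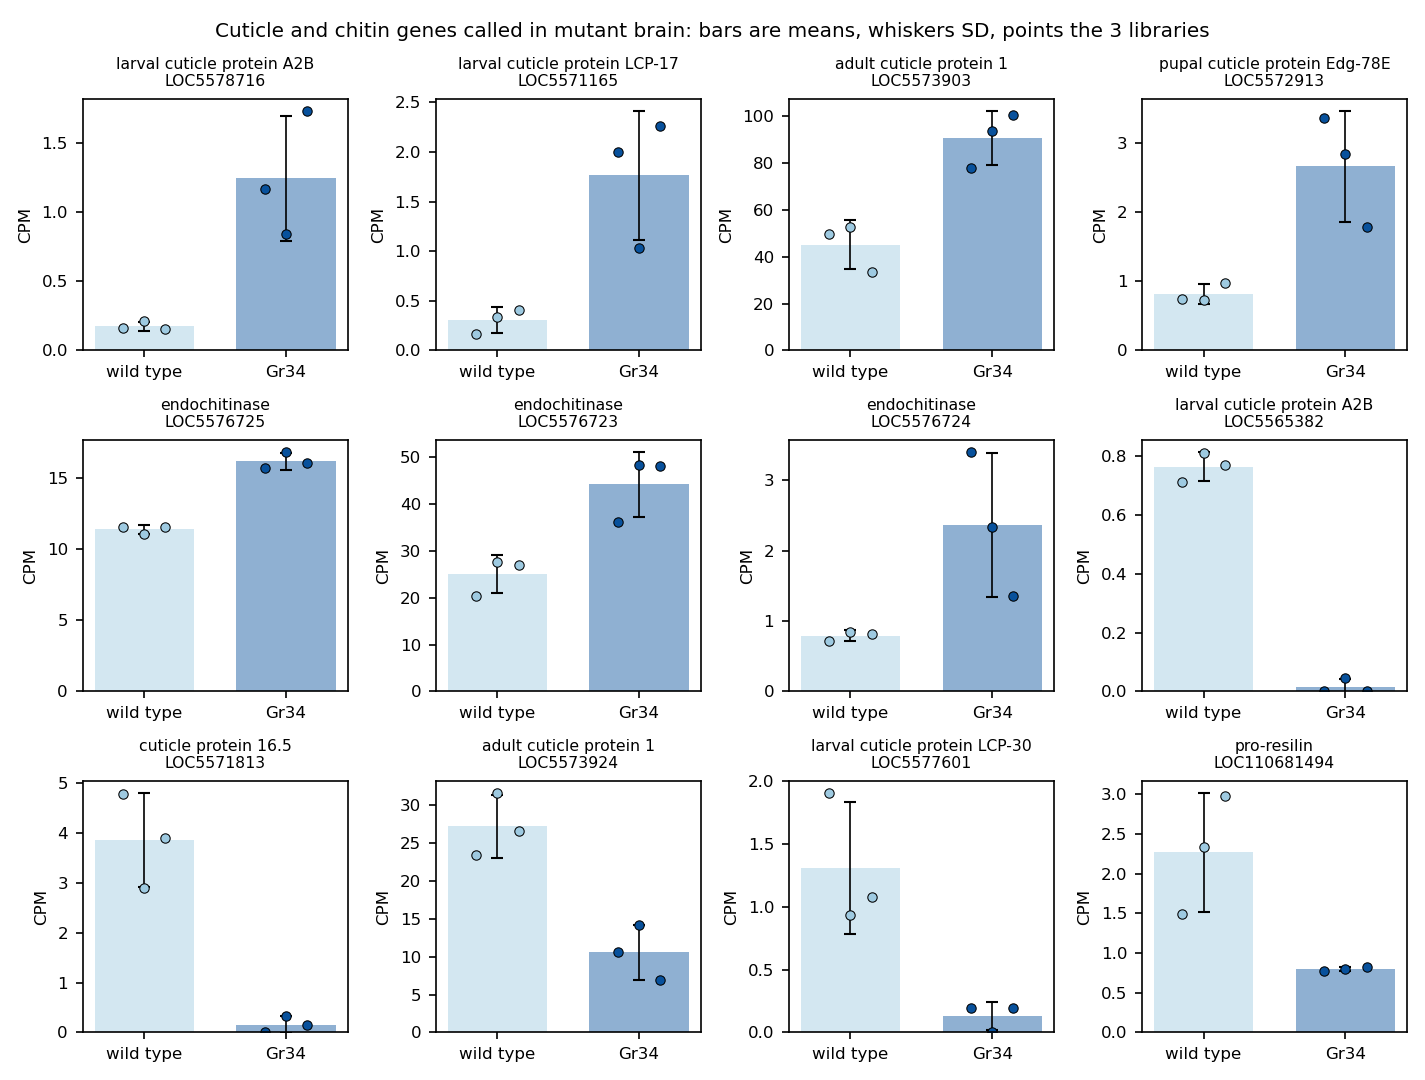
CPM in the 3 wild-type and 3 Gr34 mutant brain libraries for the 12 members called in brain (bars, means; whiskers, SD; points, libraries). The first 7 panels show genes higher in the mutant and the last 5 genes lower in it; cuticle protein 16.5 and A2B LOC5565382 are at or near 0 in the mutant libraries.

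How many brain members were called depended on the libraries. The share of all genes that each of these fits called is not given. Leaving out 1 library gave 4 to 17 calls: 5, 4 and 14 when wild-type replicate 1, 2 or 3 was dropped, and 4, 9 and 17 when mutant replicate 1, 2 or 3 was. In the authors' deposited table of DESeq2 results, 131 members had an adjusted p in brain. It was under 0.05 for 22 of them, 12 higher and 10 lower, against 12.1% of 14278 genes. All 12 genes called here were among these 22. A single fit of all 12 libraries called 6, of which LOC5565382, LOC5571165, LOC5571813, LOC5572913 and LOC5577601 were among the 12. It did not call the adult cuticle protein 1 genes LOC5573903 and LOC5573924, the 3 endochitinases, A2B LOC5578716 or pro-resilin LOC110681494 (adjusted p 0.0514 to 0.662). Limma did not call endochitinase LOC5576724 either (adjusted p 0.0523 and 0.0514 with pseudocounts of 1 and 0.1).

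In fat body 0 of 56 tested members were called by edgeR's quasi-likelihood test, against a background of 0.234% of 11558 genes (0.138% higher and 0.0952% lower), and 9 had an unadjusted p under 0.05 (background 7.85%). The genotypes did not overlap in 8 (background 11.0%). DESeq2 called 4, namely LOC110681494, LOC5576723, LOC5576995 and LOC5578580. The share of all genes that DESeq2 called is not given, so these 4 cannot be set against the edgeR background. The authors' deposited table calls 5 of the 93 members to which it gives an adjusted p, 4 higher and 1 lower, against 2.89% of 13281 genes. The median log2 fold change was -0.06, against 0.00 over all genes. The gene nearest to a call was pro-resilin LOC110681494, which fell in brain. It stood at 3.06, 1.56 and 2.54 CPM in wild-type fat body and at 0, 0.0971 and 0.220 CPM in the mutant, without overlap, a log2 fold change of -4.39 (SE 0.78, adjusted p 0.0948, edgeR). The authors' deposited table gives it a log2 fold change of -4.45 with an adjusted p of 7.71e-06. A single fit of all 12 libraries also called it in fat body, and the difference between tissues in its genotype effect, -2.85 (SE 0.79), had an adjusted p of 0.220 (edgeR).

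The endochitinase LOC5576723, called in brain, was at 53.9, 40.0 and 25.0 CPM in wild-type fat body and at 152.7, 61.5 and 121.0 CPM in the mutant, again without overlap (log2 fold change 1.50, SE 0.43, adjusted p 0.332, edgeR). Its neighbour LOC5576725, also called in brain, had a log2 fold change of -0.10 (SE 0.39) in fat body. Of 15 chitinases tested there 2 had an unadjusted p under 0.05, LOC5576723 and LOC5565474, and of the rest LOC5574810 and LOC5569536 marked the ends of the fold changes, at 1.07 (SE 0.49) and -0.63 (SE 0.63). Obstructor-E LOC5578580 was higher in each mutant fat body library (0.869 ± 0.265 CPM against 2.83 ± 0.72 CPM, SD, n = 3; log2 fold change 1.70, SE 0.44, adjusted p 0.256, edgeR). Adult cuticle protein 1-like LOC110677060 was lower in each (-1.17, SE 0.35, adjusted p 0.351), and the brain-called Edg-78E gene LOC5572913 was higher in each (1.20, SE 0.49, adjusted p 0.590).

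Of the abundant fat body genes, flexible cuticle protein 12 stood at 1432, 1889 and 751 TPM in wild type and at 538, 911 and 706 TPM in the mutant. LCP-30 stood at 530, 613 and 347 TPM and at 171, 332 and 381 TPM. The ranges overlapped in both genes, and neither passed the test. Of the 45 members tested in both tissues, 26 had a fold change of the same sign. Of the 12 genes called in brain, 7 were tested in fat body, and 5 had the same sign there. The share of same signs over all genes is not given, so these counts say nothing particular to the members.

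**Figure D3:**
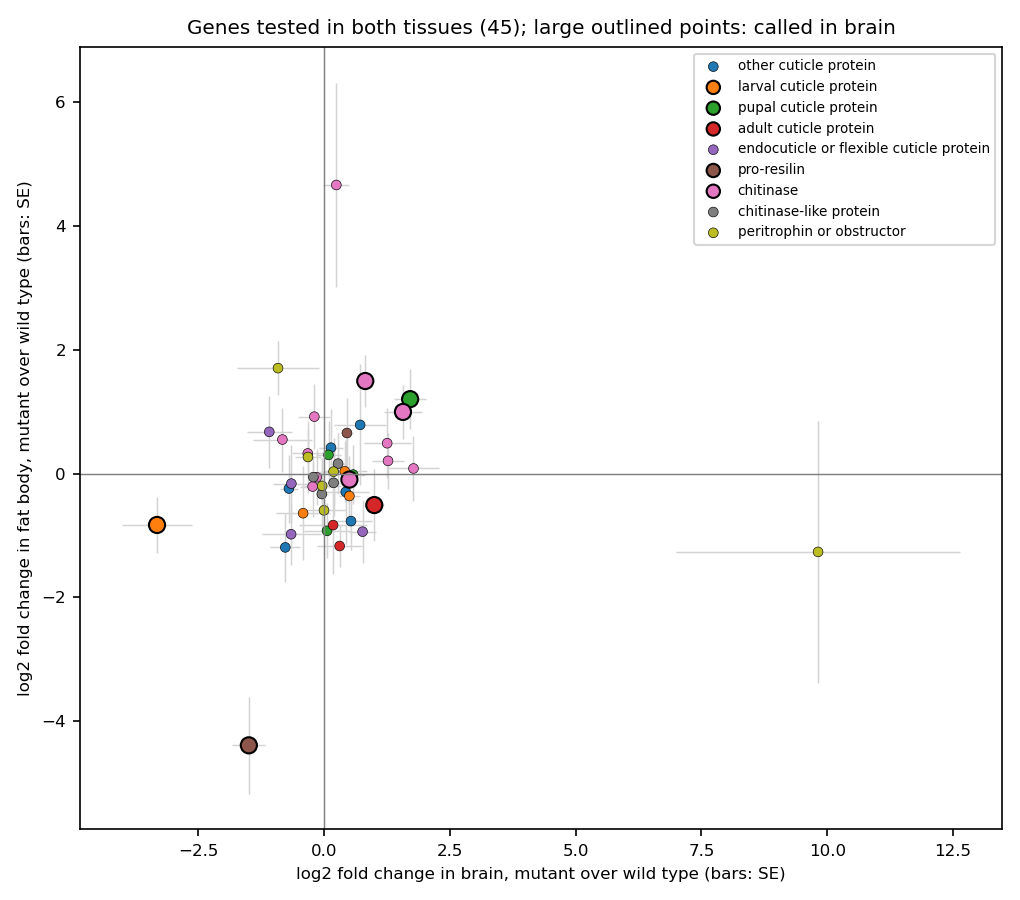
Log2 fold changes, mutant over wild type, in brain (x axis) and fat body (y axis) for the 45 members tested in both tissues; bars are SE and large outlined points mark the 7 called in brain. Pro-resilin LOC110681494 lies lowest at -1.49 and -4.39, and peritrophin-1-like far to the right has an SE of 2.82 in brain.

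One gene passed the test of a difference between tissues in the genotype effect, of 83 tested members, against 0.467% of 12859 genes (0.148% in its direction). An unadjusted p under 0.05 was reached by 14 members (background 9.03%). The gene called was LCP-17 LOC5571167 (chr3:236990340-236991241, plus strand), the neighbour of the LCP-17 gene called in brain. In brain it was at 0.0611, 0.0400 and 0.0478 CPM in wild type and at 0.897, 0.342 and 0.734 CPM in the mutant. In fat body it was at 0.408, 0.429 and 0.395 CPM in wild type and at 0.424, 0.274 and 0.242 CPM in the mutant. The difference between the effects, fat body minus brain, was -3.97 on the log2 scale (SE 0.71, adjusted p 0.0385, edgeR), and the brain genotypes do not overlap. These are few reads, 0.75 to 2 estimated counts per wild-type brain library and 7.5 to 19.6 per mutant one, and the gene did not enter the test in brain alone. In a single fit of all 12 libraries its brain difference was called, at 3.56 on the log2 scale (adjusted p 0.00485, edgeR). The call was lost in 9 of the 12 fits that left out 1 library (adjusted p up to 0.168): without any 1 wild-type brain library, mutant brain replicates 1 or 3, or replicates 2 or 3 of either fat body group. Limma, with a pseudocount of 1 or of 0.1, did not call this gene. The sum with its neighbour LOC5571165 was 0.226, 0.383 and 0.462 CPM in wild-type brain and 2.97, 1.40 and 3.04 CPM in mutant brain (log2 fold change 2.81, SE 0.44, adjusted p 0.0103, edgeR), whereas in fat body it had a log2 fold change of -0.41 (SE 0.46).

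Which members belong to which dissection was read from wild type alone. Fat body and brain differed in 51 of 70 tested members, 18 higher in fat body and 33 lower, against a background of 64.7% of 12088 genes (32.0% higher and 32.7% lower). The tissues did not overlap in 53 members (background 72.4%), and 54 had an unadjusted p under 0.05 (background 68.3%). The members' median log2 fold change was -1.09, against 0.02 over all genes. On the TPM scale with limma, where the median of all genes was -0.41 with a pseudocount of 1 and -0.49 with 0.1 (shifts of -0.43 and -0.51), the calls split 14 higher and 39 lower, or 13 and 39.

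The classes leaned in different directions. Of 13 chitinases tested, 8 were higher in fat body and 2 lower, with a median of 1.88. Of 17 other cuticle proteins, 1 was higher and 12 were lower, with a median of -3.18. Adult cuticle proteins had 1 higher and 4 lower of 6, pupal cuticle proteins 1 and 3 of 7, and peritrophins or obstructors 2 and 4 of 8. Larval cuticle proteins had 2 higher and 3 lower of 6, endocuticle or flexible cuticle proteins 2 and 3 of 6, chitinase-like proteins 1 and 1 of 5, and pro-resilins 0 and 1 of 2.

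Several cuticle proteins of the brain dissection had 0 to 3 counts in wild-type fat body. Cuticle protein 19 LOC5579448 had 692 counts in brain (11.5, 10.2 and 2.89 CPM) and 0 in fat body, at least 184-fold lower against a floor of 3 counts over the group. The gene LOC5565379, described as cuticle protein, was at 3.35, 2.85 and 14.2 CPM in brain and 0 in fat body, at least 127-fold lower. Edg-84A LOC5578129 had 846 counts in brain and 1 in fat body, a ratio of 675 with an exact 95% counting interval of 121 to 26700; it overlaps LOC5578128 on the other strand. Cuticle protein 8 LOC5565358 had 684 counts against 3 (182, 62.0 to 885). These intervals and floors cover counting error only.

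Adult cuticle protein 1 LOC5573924, which fell in mutant brain, was at 22.1, 29.8 and 24.9 CPM in brain and at 0.118, 0.579 and 0.160 CPM in fat body (log2 fold change -6.45, SE 0.51, adjusted p 6.22e-05, edgeR). Pro-resilin LOC5571030 went from 29.3 ± 4.1 CPM in brain to 0.706 ± 0.381 CPM in fat body (SD, n = 3; log2 fold change -5.39, adjusted p 7.10e-05, edgeR). The brain level of SgAbd-5 LOC5568889, named for a locust abdominal protein, was uneven at 2.81, 7.38 and 21.4 CPM, against 0.120 to 0.353 CPM in fat body. Obstructor-E LOC5577475 was at 6.35 to 11.0 CPM in brain and at 0 to 0.471 CPM in fat body. All of these were called, and stayed called with any 1 library left out.

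On the fat body side, LCP-30 LOC5577601 was at 1.80, 0.882 and 1.01 CPM in brain and at 565.9, 400.9 and 184.9 CPM in fat body (log2 fold change 8.26, SE 0.61, adjusted p 4.40e-05, edgeR). Probable chitinase 2 LOC5567542 went from 0.305, 0.401 and 0.144 CPM to 37.0, 16.5 and 25.6 CPM (6.48, SE 0.48, adjusted p 4.54e-05, edgeR). Probable chitinase 10 LOC5574807 (5.17, SE 0.53) and endochitinase LOC5576724 (4.10, SE 0.30) were also higher in fat body. In mutant brain these 4 genes did not move one way: LCP-30 was called lower (-3.32), the endochitinase was called higher (1.57), and probable chitinases 2 and 10 had log2 fold changes of 1.78 and 1.27 that were not called. Both comparisons use the wild-type brain libraries. The fat body list was at 0.114 ± 0.018% of counts in the brains of wild type and 0.142 ± 0.007% in those of the mutant (SD, n = 3), and 1 of its 14 tested genes was called higher there; their part in these differences was not tested.

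Flexible cuticle protein 12 was at 62.5, 61.4 and 31.1 CPM in brain and at 835.4, 675.6 and 218.6 CPM in fat body (log2 fold change 3.48, SE 0.56, adjusted p 0.00140, edgeR). Pupal cuticle protein 36a LOC5565726 was higher by 3.36 (SE 0.56) and cuticle protein 19 LOC5577796 by 3.64 (SE 0.84). With limma on log2(TPM + 1) and log2(TPM + 0.1), LOC5577796 was not called (adjusted p 0.0708 and 0.0633), and summed with 2 neighbours of its description the log2 fold change was -0.91 (SE 0.20, adjusted p 0.00499, edgeR). LOC5565726 overlaps LOC5565745 on the other strand. Of the 51 genes called between tissues, 42 stayed called in each of the 6 fits that left out 1 library, and 8 overlap a gene on the other strand.

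**Figure D4:**
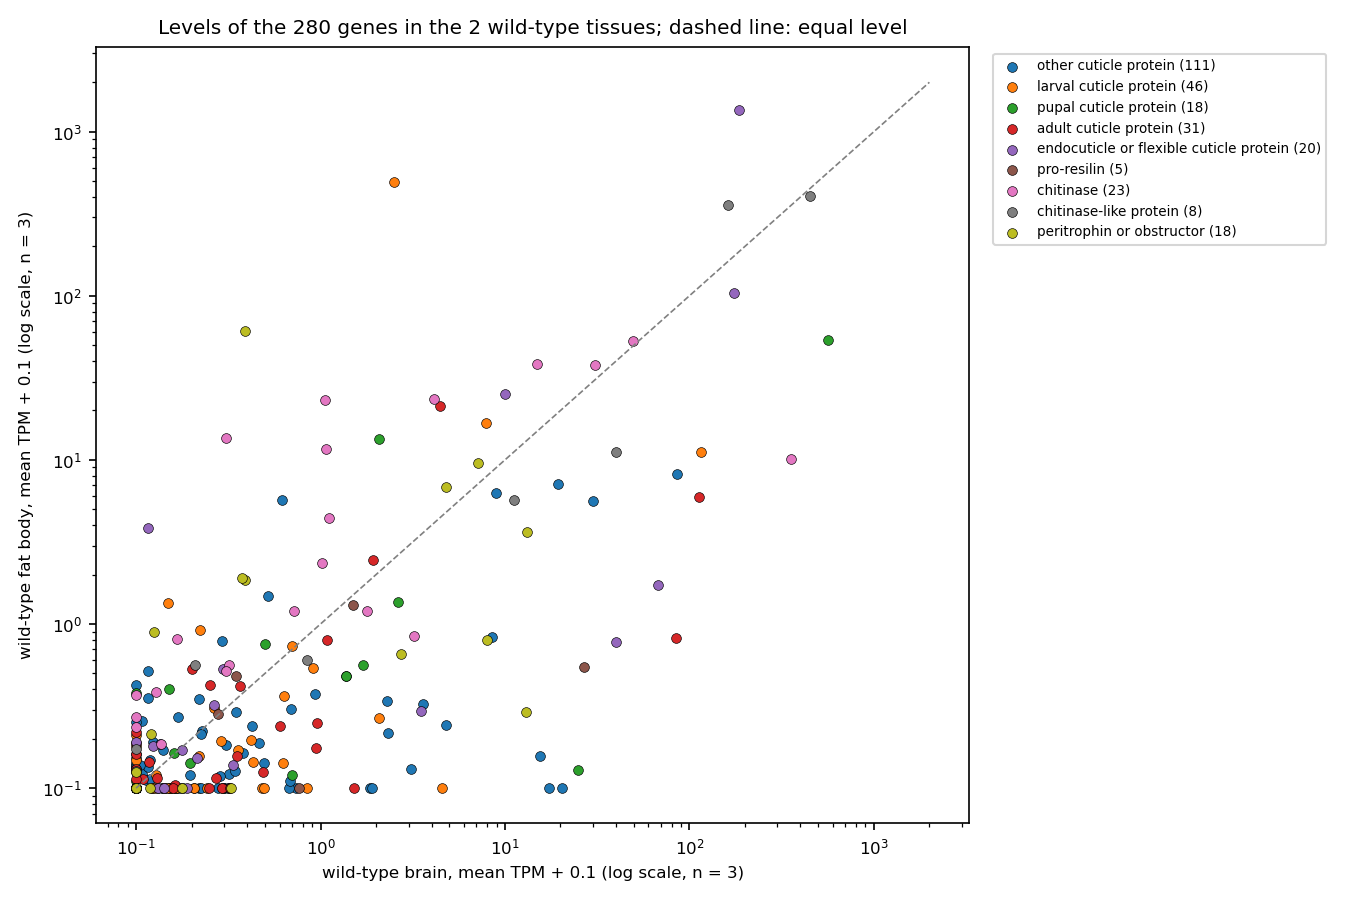
Mean TPM + 0.1 of the 280 members in wild-type brain (x axis) and wild-type fat body (y axis), both on log scales, coloured by class; the dashed line marks equal levels. LCP-30 lies high on the left at 2.39 and 497 TPM, and cuticle proteins such as LOC5579448 lie on the lower edge at 0 TPM in fat body.

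Some members differed among libraries of 1 group more than between groups. Peritrophin-1-like LOC110675944 (chr2:114019231-114020331) was at 446, 552 and 0.164 TPM in mutant brain, at 0.864, 0 and 0 TPM in wild-type brain, at 176, 0.0712 and 7.37 TPM in wild-type fat body and at 0.0593, 90.2 and 47.5 TPM in mutant fat body. It was not called in brain (log2 fold change 9.82, SE 2.82, adjusted p 0.117, edgeR), although the authors' deposited table gives it an adjusted p of 0.00689 there. Its tissue difference, 8.48 (SE 2.67, adjusted p 0.0259, edgeR), was called with overlapping groups and was lost without any 1 wild-type brain library (adjusted p up to 0.0859); without wild-type fat body replicate 1 the gene did not enter the test, and limma did not call it (adjusted p 0.122 and 0.0973 with pseudocounts of 1 and 0.1). Without this gene the members took 0.216 ± 0.025% of counts in mutant brain and 0.189 ± 0.008% in wild type (SD, n = 3).

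Peritrophin-1 LOC5568550 shared the pattern in brain, at 16.1, 7.66 and 0.0850 TPM in the mutant. Obstructor-E LOC5575311 was at 5.83, 9.67 and 0 TPM there and at most 0.0734 TPM in wild-type brain. In both, mutant brain replicates 1 and 2 were high and replicate 3 was low. Digestive enzymes (trypsins, chymotrypsins and carboxypeptidases B, 100 genes in all) are a list set after seeing the data. They took 0.0193%, 0.0239% and 0.0160% of mutant brain counts, against 0.0102% to 0.0137% for wild type, without overlap. A gut list of 154 genes did overlap between the genotypes. Its brain shares were 0.287%, 0.348% and 0.182% for the mutant, against 0.217%, 0.249% and 0.273% for wild type. Of its 47 genes tested by genotype there, edgeR called 6 higher and 1 lower. The part of either list in these values was not tested.

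Several chitinases were uneven in fat body. Probable chitinase 10 LOC5565474, abundant in brain, was at 15.5, 4.76 and 9.71 TPM in wild-type fat body and at 1.53, 228 and 685 TPM in the mutant. Probable chitinase 10 LOC5574806 was at 10.8 and 35.4 TPM in mutant fat body replicates 2 and 3 and at most 0.366 TPM elsewhere, and chitinase-3-like protein LOC5576995 was at 9.41 and 20.3 TPM in those libraries. These digestive enzymes, a list set after seeing the data, took 0.590% and 1.09% of counts in the same 2 libraries. They took 0.0583% in mutant replicate 1 and 0.0719% to 0.181% in wild-type fat body. The gut list took 0.676% and 1.18% in those 2 libraries, 0.105% in mutant replicate 1 and 0.143% to 0.237% in wild type. Of its 59 genes tested by genotype in fat body, edgeR called 0. The part of either list in these values was not tested. By genotype in fat body, edgeR called neither LOC5565474 (adjusted p 0.498) nor LOC5576995 (0.412), and LOC5574806 did not enter its test. DESeq2 called LOC5576995, and the authors' deposited table gives LOC5574806 and LOC5576995 adjusted p-values of 0.00770 and 0.00408.

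**Figure D5:**
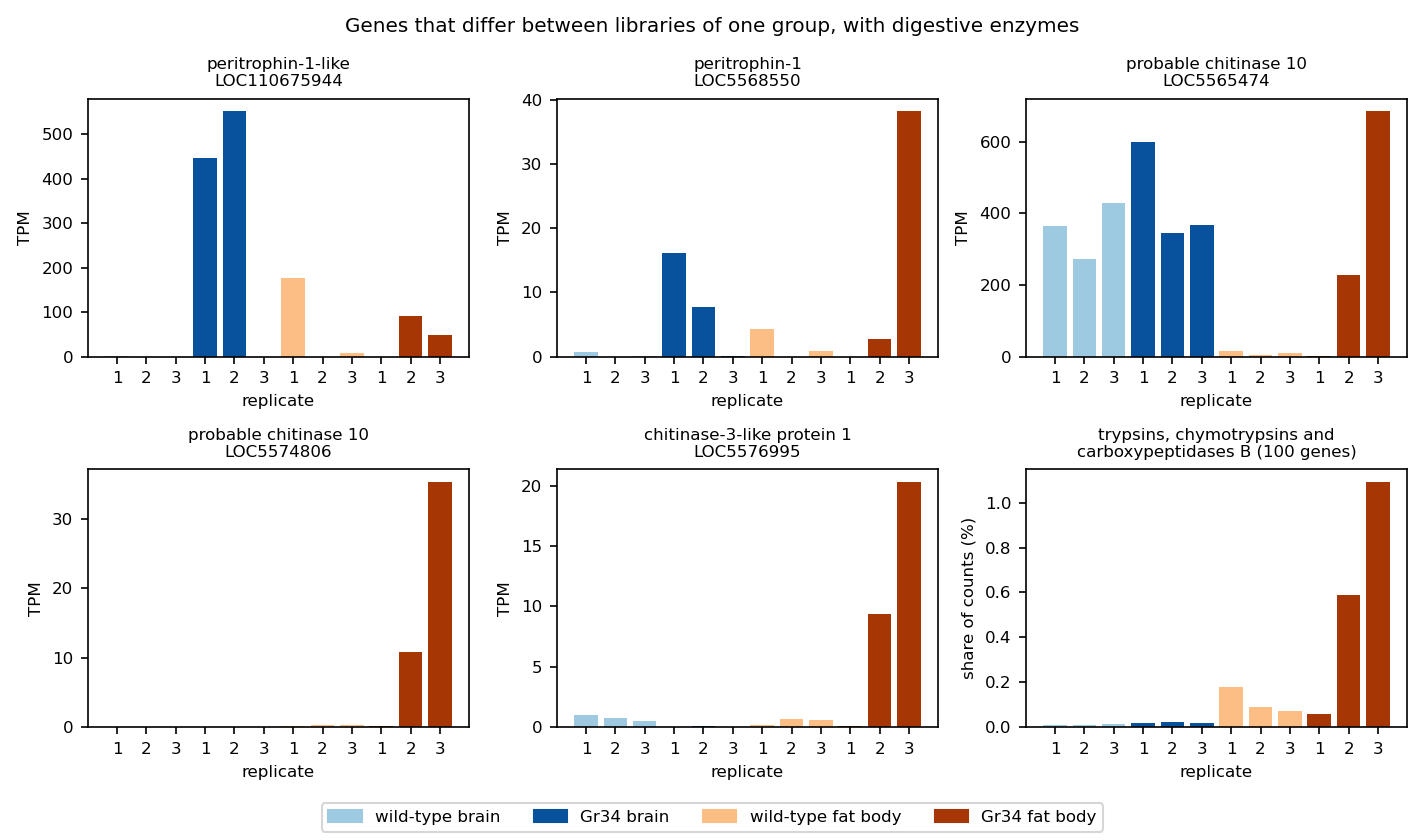
TPM by library for 5 members and, in the last panel, the share of counts in 100 digestive enzyme genes (%). Peritrophin-1-like is high in mutant brain replicates 1 and 2, and both probable chitinase 10 genes, chitinase-3-like protein 1 and the digestive enzymes are high in mutant fat body replicates 2 and 3.

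A further set of cuticle genes varied across fat body libraries of both genotypes. Cuticle protein 19 LOC5577796 was at 0.496, 4.94 and 11.4 TPM in wild-type fat body and at 1.18, 9.97 and 2.01 TPM in the mutant, and SgAbd-3 LOC5577602 was at 0.554, 4.91 and 5.71 TPM and at 0.666, 6.96 and 0.361 TPM. Both were lowest in wild-type replicate 1 among the wild-type libraries and highest in mutant replicate 2 among the mutant libraries. The 28 ovary and germline genes took 0.0851%, 0.345% and 0.507% of the counts of the wild-type libraries and 0.128%, 0.556% and 0.198% of those of the mutant, and their part in these values was not tested.

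Genes that supply, tan or cover the cuticle without bearing its name were read from 3 further lists. Over all genes tested by genotype, 4.6% were called higher and 4.26% lower in brain. The shares in fat body were 0.138% and 0.0952%. Of 11 tested tanning and pigment genes in brain, 1 was called higher and 0 lower: protein yellow LOC5564720, of the family behind dark pigment, rose from 14.3 ± 3.3 to 32.7 ± 7.4 CPM (SD, n = 3; log2 fold change 1.19, SE 0.23, adjusted p 0.0237, edgeR), a call kept in 2 of 6 fits that left out 1 library. Of 8 genes of chitin precursor supply and turnover, 1 was called higher, phosphoacetylglucosamine mutase LOC5574930 (0.66, SE 0.16, adjusted p 0.0430, edgeR), an enzyme on the way to the chitin building block. That call was kept in 0 of the 6 fits. Of 38 surface matrix genes, 0 were called higher and 3 lower, among them mucin-5AC LOC5569902, which fell from 4.16 ± 0.32 to 0.720 ± 0.222 CPM (SD, n = 3; -2.52, SE 0.27, adjusted p 0.00272, edgeR) and was called in all 6 fits. In fat body 0 of 16, 0 of 8 and 0 of 37 genes of these lists were called by genotype with edgeR, where 0, 1 and 3 had an unadjusted p under 0.05 and DESeq2 called 0 of each. Between the wild-type tissues, 11 of 16 tanning genes were higher in fat body and 4 lower, including tyrosine 3-monooxygenase LOC23687518 (tyrosine hydroxylase, which makes dopa; 126 ± 34 against 726 ± 544 CPM, SD, n = 3; 2.52, adjusted p 0.0120, edgeR), against 32.0% higher and 32.7% lower of all genes. Of 8 precursor genes 2 were higher and 2 lower, and of 38 surface matrix genes 6 were higher and 16 lower. LOC23687518 stood at 185, 720 and 1273 CPM in wild-type fat body and 134, 156 and 89.1 CPM in wild-type brain, and its call was kept in 5 of 6 fits leaving out 1 library (adjusted p 0.0518 in the other). In fat body the tanning list took 0.0353%, 0.124% and 0.224% of the counts of wild type, whereas its share in the mutant was 0.0488%, 0.199% and 0.0858%. Within each genotype the list's order across fat body libraries was that of the ovary and germline genes given above, whose part was not tested.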

How the data were processed

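Libraries were of polyA RNA primed at random (NEBNext Ultra II), per the labels' protocols. Reads were aligned and counted with tools that the submitters' processing notes list as STAR and featureCounts of Subread, beside FastQC and DESeq2. For genome build, strand setting and multi-mapped reads, details were not given in the sources used here. As values the authors deposited estimated counts per gene, which were not whole for 82 members, and TPM values. From the authors' deposited DESeq2 tables the log2 fold changes and p-values were read. A test score (stat, per the file headers) stands beside them and was not used. Positions are those of AaegL5.0, where 273 of 280 members had the same start and end as in the deposited tables.

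Counts were rounded to whole numbers. With edgeR 4.0.16 in R 4.3.3, all genes were fitted (TMM, filterByExpr with a count of 10 and a total of 15, robust two-sided quasi-likelihood F-test, Benjamini-Hochberg adjustment, threshold 0.05), each tissue apart, wild type alone for the tissues, and all 12 libraries for the difference between tissues. SE is the log2 fold change divided by the square root of F. CPM use the library sizes of each comparison, so a gene's CPM differ slightly between comparisons. Alternatives used DESeq2 1.42.0 and limma 3.58.1. The fits were tested on simulated data. Named were all called members by genotype; the 8 largest called tissue differences in each direction at 5 CPM or more; the 5 most abundant members per tissue and the top of each class; and tested chitinases. LOC5570385, LOC5574806, LOC5576995, LOC5568550, LOC5575311, LOC5577602 and LOC5578580 were singled out after their values were seen. The members and lists were chosen with earlier results of these data known. Reads carry no molecular identifiers.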

Additional observations from a re-analysis of the deposited data

Results flagged for a closer look

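Larval cuticle protein LCP-17 LOC5571167 had genotype effects that differed between the tissues by the test of the difference itself, -3.97 on the log2 scale, fat body minus brain (SE 0.71, adjusted p 0.0385, edgeR's quasi-likelihood test). All 3 mutant brain libraries, at 0.342 to 0.897 CPM, lay above the 3 wild-type ones, at 0.0400 to 0.0611 CPM, while in fat body the ranges were 0.242 to 0.424 CPM and 0.395 to 0.429 CPM. The call was kept in 3 of 12 fits that left out 1 library. DESeq2 also called the gene. Limma on log2(TPM + 1) and on log2(TPM + 0.1), the fit with no filter and the replicate block did not.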

How the results depend on the processing

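In brain, DESeq2 called 18 members, limma on log2(TPM + 1) and on log2(TPM + 0.1) 13 each, DESeq2 size factors in edgeR 13 and no filter 16; a single fit of all 12 libraries called 6, of which 5 were among the 12. Fits leaving out 1 library called 4 to 17 in brain, 0 to 0 in fat body, 46 to 59 between tissues and 0 to 2 for the difference between tissues. In fat body DESeq2 called 4 and the fit of all 12 libraries 2. For the difference between tissues DESeq2 called 3, among them LOC5571167, the 1 gene of the main fit. Limma on log2(TPM + 1) called 2, and LOC5571167 was not among them. No filter, limma on log2(TPM + 0.1), the replicate block and the summed neighbours called 0, and the cause was not tested. No share of all genes called stands beside the counts of this section, so they do not compare the members with other genes. The log2 ratio of summed levels ran from 0.227 to 0.447 in brain, -0.355 to -0.0704 in fat body and 0.169 to 0.401 between tissues with 1 library left out; without the tissue's 5 most abundant members it was 0.15 in fat body (from -0.175). Between tissues (0.251) it was -0.28 without both tissues' 5, and, chosen after seeing the data, 0.98 without brain's 5 alone and -0.91 without fat body's 5 alone.

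Summing neighbours of the same description was chosen after seeing the data. It turned the tissue difference of 2 features, cuticle protein 19 LOC5577796 to -0.91 and endochitinase LOC5576726 to 1.35, since each sum then holds more abundant neighbours. Summing members with near-identical proteins was not run. Over the named genes and alternatives, 1649 fold changes kept their direction and side of the threshold, 87 lost the call, 25 gained it and 2 turned. The 1649 include genes that were never called, such as those by genotype in fat body, so they do not measure how stable the calls are. Of the 12 genes called in brain, 2 stayed called in each of the 6 fits that left out 1 library.

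Deviations of same-numbered wild-type and mutant libraries correlated at 0.015, 0.099 and 0.204 in brain and 0.176, 0.321 and -0.223 in fat body. Those of unlike-numbered libraries ran from -0.221 to 0.188 in brain and from -0.510 to 0.412 in fat body. With 3 libraries a group, these values cannot settle whether the replicate numbers pair the samples. The main fits took the libraries as unpaired. With the replicate block 11 members were called in brain (8 of the 12), 0 in fat body, 50 between tissues and 0 for the difference between tissues. Depth limits the low genes: most members had under 10 counts in each library.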
